A study of Bos taurus with 79 samples.

Results

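The endometrium of pregnant heifers with normal progesterone was compared between day 16 and day 13 of early pregnancy. These were 10 of the 79 samples of the study, 5 of day 16 and 5 of day 13, chosen by their labelled day, pregnancy status and progesterone level, and each was measured on 1 Affymetrix bovine array. The study took endometrium from cross-bred beef heifers, a synchronized herd of 210 animals, in 16 groups that span 4 days, cyclic and pregnant animals, and normal and high progesterone. Heifers were killed on the sampling day, so the animals of day 16 and day 13 were different ones.

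The pregnant heifers with normal progesterone had been inseminated, were found to be pregnant and carried no progesterone device. The cyclic heifers with normal progesterone, used for comparison on the same days (5 samples each), were not inseminated and carried no device. The pregnant heifers with high progesterone (5 samples each) were given a progesterone-releasing intravaginal device on day 3, which stayed in place until slaughter. All groups shared the synchronization. RNA came from 300 mg strips of endometrium, which hold luminal and glandular epithelium, stroma, vessels and leukocytes together, so more or fewer cells of a type and more or less RNA per cell cannot be told apart. The labels give no concentration of progesterone for single heifers and no measure of the embryo's size or of the interferon it made.

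Between these days the cattle embryo elongates inside the uterus without yet attaching to it. Its trophoblast secretes interferon tau, which binds the type I interferon receptor (IFNAR1 and IFNAR2) on the endometrium; the signal passes through a transcription complex that holds IRF9 to a large set of interferon-stimulated genes and holds down the oxytocin receptor, so that the pulses of prostaglandin F2α that would end the corpus luteum do not arise. The embryo meanwhile lives on histotroph, the mixture of sugars, amino acids, lipids and proteins that the uterine epithelium transports or secretes.

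Values are log2 expression per probe set, from 0.95 to 15.37, and a difference of 1 on this scale is a doubling or halving of the signal. The 10 arrays had medians between 4.97 and 5.12. Of 9155 named genes, 218 passed the threshold between day 16 and day 13 (limma, Benjamini-Hochberg adjusted p under 0.05 over 24016 probe sets), which was 2.38% of the genes. Over all probe sets, named or not, 429 passed (1.79%), 234 higher (0.974%) and 195 lower (0.812%). The count of probe sets was 263 without replicate 1 of day 13, 283 without replicate 4 of day 16 and 1183 with arrays weighted by quality. Of the 218 named genes 121 were higher on day 16 (1.32%) and 97 lower (1.06%), with median differences of 1.22 and -1.04, and 74 and 55 of them differed by at least a doubling or halving. The arrays of day 16 and day 13 did not overlap for 104 of the 121 and 83 of the 97. They did not overlap for 489 of all 9155 genes (5.34%). Over all genes the median difference was -0.01.

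In the plot of calls by gene list, 2 interferon lists had the most calls. Higher on day 16 were 20 of 32 antiviral effectors and 9 of 15 genes of the ISG15 system and PARP enzymes. The interferon receptors and signalling proteins had 5 of 22 higher. The serine, one-carbon and amino acid enzymes had as many calls, with 1 higher and 4 lower of 43. No member of these interferon lists was lower past the threshold. Over all named genes 1.32% were higher and 1.06% lower. Lists with 1 or 2 calls are described below by single genes, not as sets.

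**Figure D1:**
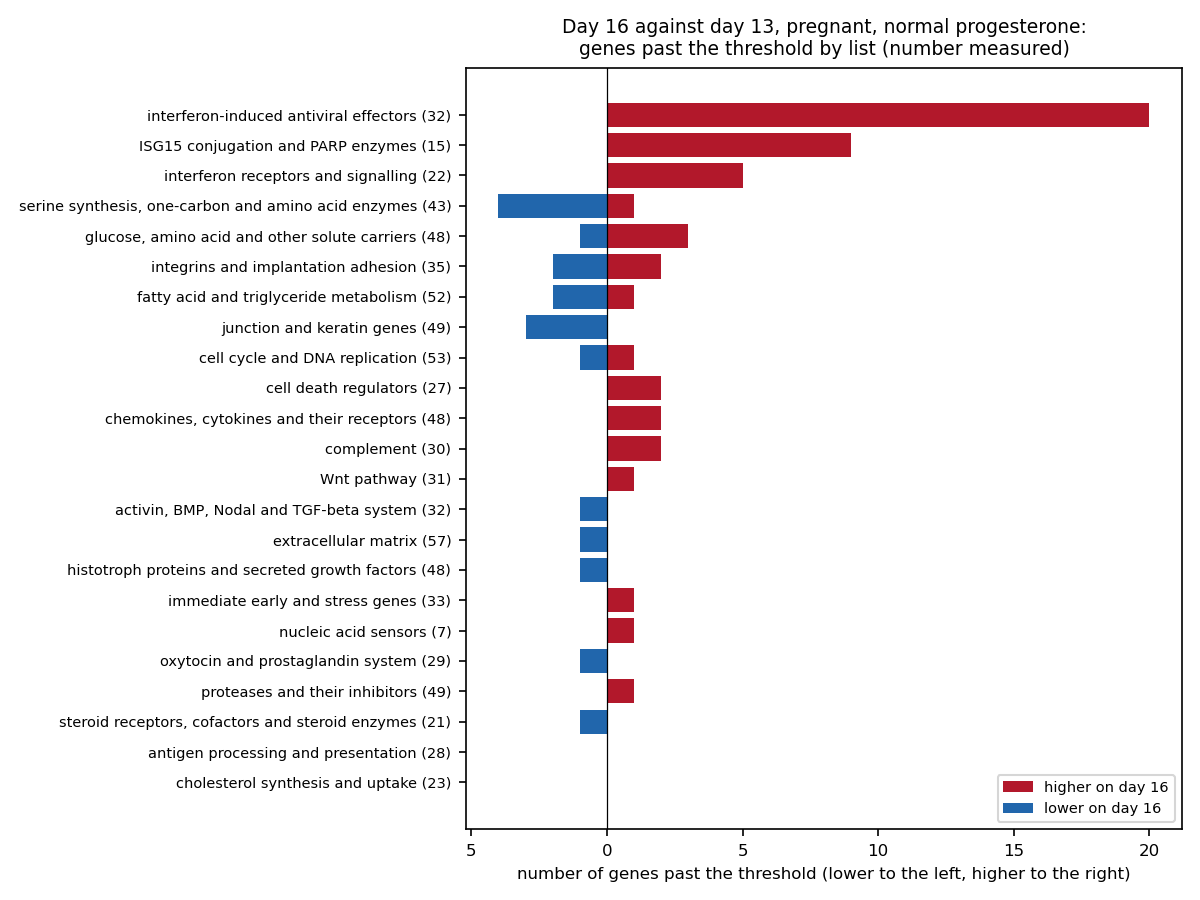
Number of genes past the threshold between day 16 and day 13 in pregnant heifers with normal progesterone, for each of 23 gene lists (number of genes measured in brackets), with higher genes to the right of 0 and lower genes to the left. The antiviral effectors stand far to the right with 20 of 32, and the longest bar to the left is that of the serine, one-carbon and amino acid enzymes with 4 of 43.

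Neither subunit of the receptor for interferon tau passed the threshold. IFNAR1 averaged 6.46 ± 0.33 on day 16 and 6.40 ± 0.45 on day 13 (SD, n = 5 each), a difference of 0.06 with a standard error of 0.29. IFNAR2 averaged 7.11 ± 0.24 on day 16 and 7.48 ± 0.15 on day 13, a difference of -0.37 (SE 0.17, adjusted p = 0.417). The days overlapped for IFNAR1 and met at 7.33 for IFNAR2.

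Downstream of the receptor, 5 of the 22 signalling genes were higher, and the list's median difference was 0.09. IRF9, the DNA-binding part of the interferon-activated transcription complex, read 9.56, 9.85, 10.17, 9.95 and 10.44 on day 16, against 7.44, 7.27, 7.41, 9.45 and 7.76 on day 13. The days did not overlap, but replicate 4 of day 13 lay close to the lowest array of day 16. The difference was 2.13 (SE 0.56, adjusted p = 0.0255). IRF7, a factor that amplifies the interferon response, read 8.39, 8.01, 8.74, 8.34 and 8.95 on day 16, against 6.02, 5.32, 5.81, 6.91 and 5.75 on day 13. All arrays of day 16 were higher, by 2.53 on average (SE 0.46, adjusted p = 0.000329). STAT2, which joins IRF9 in that complex, rose by 0.94 (SE 0.26, adjusted p = 0.0414) and IRF3, which carries the signal of virus sensors, by 0.75 (SE 0.17, adjusted p = 0.00676). Without 1 array the list kept between 2 and 5 calls: those of IRF9 and STAT2 were lost in 7 and 8 of the 10 omissions, with adjusted p up to 0.0927 and 0.167, among them the omission of replicate 1, 2, 3 or 5 of day 13. Of the 7 nucleic acid sensors measured, DHX58, a regulator of the RIG-I family of RNA sensors, was the 1 gene called. It read 8.59, 8.17, 8.57, 8.66 and 8.61 on day 16, against 5.55, 5.55, 5.45, 7.21 and 6.01 on day 13. These sets lay apart, with a difference of 2.57 (SE 0.47, adjusted p = 0.000329).

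MX2, a dynamin-like GTPase that blocks viruses, showed the highest measured difference of all named genes. MX2 (gene ID 280873) read 8.93, 7.64, 9.27, 9.41 and 9.79 on day 16, against 2.12, 2.55, 2.07, 7.29 and 2.10 on day 13. On day 13, 4 arrays lay at the bottom of the scale, where signals may be compressed, and replicate 4 lay just under the lowest array of day 16. The difference was 5.78 (SE 0.99, adjusted p = 0.00012), or 6.80 without replicate 4 of day 13, and its size is not exact. RSAD2 (gene ID 506415), also called viperin, which stops viral budding and RNA synthesis, read 10.39, 9.92, 11.35, 11.08 and 11.38 on day 16, against 5.70, 4.76, 5.49, 8.76 and 6.47 on day 13. Again replicate 4 was the highest array of day 13 and the days did not overlap. Its difference was 4.59 (SE 0.99, adjusted p = 0.00376).

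**Figure D2:**
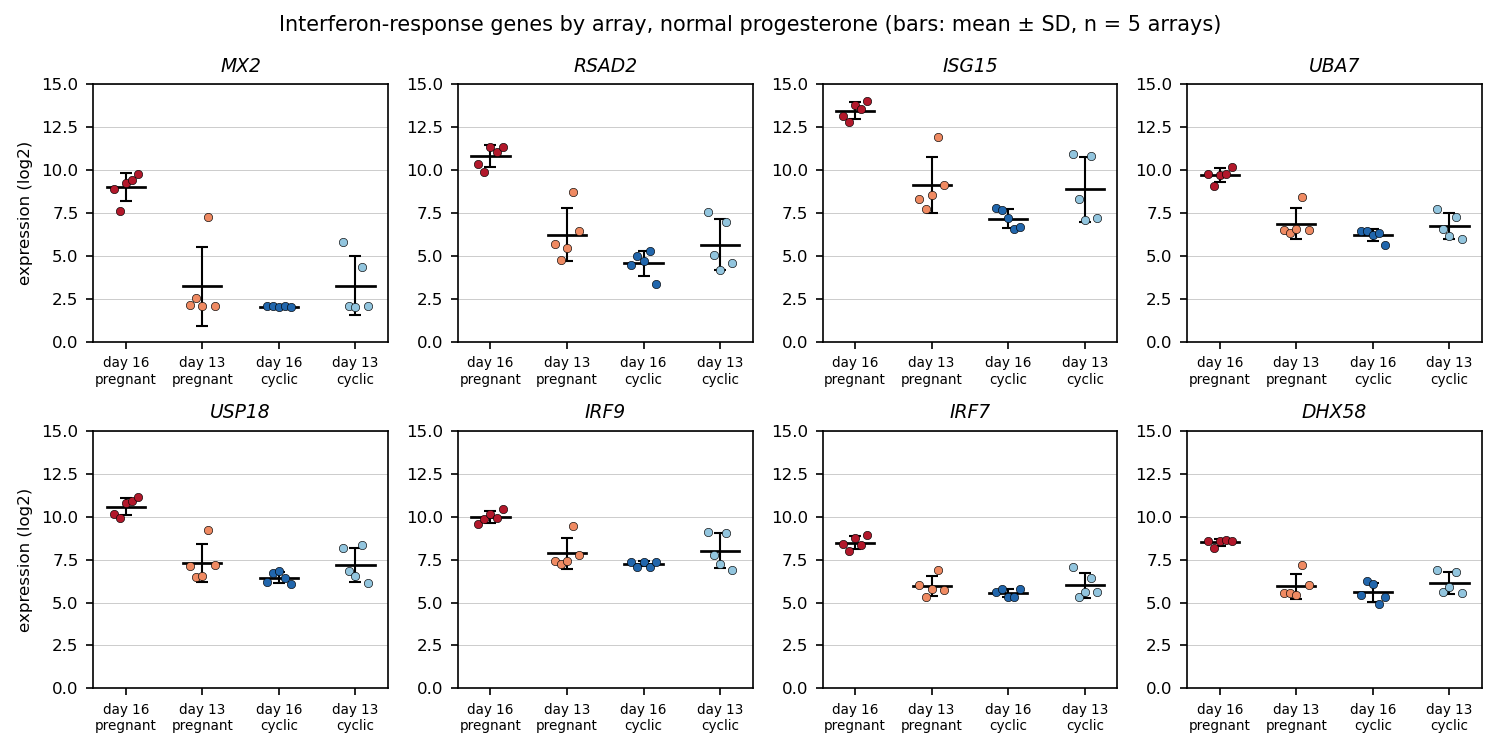
Expression (log2) of 8 interferon-response genes on each array of heifers with normal progesterone, with pregnant heifers of day 16 and day 13 to the left of cyclic heifers of day 16 and day 13; the long bar is the mean and the error bar the SD of 5 arrays. In all 8 genes the pregnant arrays of day 16 are the highest group, and 1 pregnant array of day 13, replicate 4, stands above the other 4 of its day.

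Most other antiviral effectors followed. Over the 32 measured, the median difference was 2.10, against -0.01 for all genes. A positive sign was found in 31, against 4205 of all 9155 genes. The days did not overlap for 23, against 489 of all 9155 genes (5.34%). IFI44 and IFI44L, related proteins induced by interferon, differed by 3.65 (adjusted p = 0.00479) and 3.17 (adjusted p = 0.0088). SAMD9, which restricts poxviruses, differed by 3.48 (adjusted p = 0.00308, and 0.0565 with only the compared groups fitted) and IFIT2, which binds RNA and hinders translation, by 3.12 (adjusted p = 0.00108). IFIT2 averaged 2.99 ± 0.36 on day 13, near the bottom of the scale, so the size of this difference is not exact. EIF2AK2, the kinase PKR that halts protein synthesis on sensing double-stranded RNA, differed by 2.61 (adjusted p = 0.000585), although a second, dimmer probe set of this gene differed by only 0.16.

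MX1, a GTPase used widely as a blood marker of early pregnancy in cattle, was not among the calls. MX1 read 12.49, 12.89, 12.96, 13.23 and 13.17 on day 16, against 9.40, 9.17, 9.74, 12.36 and 10.11 on day 13. The days did not overlap, and day 13 varied widely. The standard error rests on the spread within all 16 groups, and the difference of 2.79 (SE 0.84) gave an adjusted p of 0.0713. Without replicate 4 of day 13 it was 3.34, with an adjusted p of 0.0267. OAS1X, an oligoadenylate synthetase of the antiviral RNase L pathway, had values of 4.22, 8.24, 9.73, 9.65 and 9.15 on day 16, against 4.68, 5.15, 5.21, 7.31 and 6.27 on day 13. Here replicate 1 of day 16 fell within the range of day 13, and the difference of 2.47 did not pass (adjusted p = 0.394).

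ISG15 is a ubiquitin-like protein that is attached to other proteins and secreted, and some of the enzymes that attach or remove it rose with it. ISG15 (gene ID 281871) read 13.18, 12.79, 13.79, 13.60 and 14.02 on day 16, against 8.35, 7.73, 8.58, 11.95 and 9.14 on day 13. On day 16 it stood near the top of the array's scale in every heifer, above all arrays of day 13. The difference was 4.32 (SE 1.09, adjusted p = 0.0172). It ranged from 3.97 to 5.02 without 1 array, and the call was lost without replicate 1 or 2 of day 13 or replicate 5 of day 16 (adjusted p up to 0.0741). UBA7, the enzyme that activates ISG15, averaged 9.72 ± 0.40 on day 16 and 6.89 ± 0.89 on day 13 (adjusted p = 0.00401). USP18, the protease that removes ISG15 and dampens receptor signalling, averaged 10.59 ± 0.51 on day 16 and 7.31 ± 1.11 on day 13 (adjusted p = 0.00517). The conjugating enzyme UBE2L6 differed by 1.11 (adjusted p = 0.0367, lost in 8 of 10 omissions of 1 array) and the ligase TRIM25, which also ubiquitinates the RNA sensor RIG-I, by 0.99 (adjusted p = 0.0145, lost without replicate 4 of day 16). The ligases HERC5, the main ISG15 ligase of human cells, and HERC6, which takes that part in mice, gave differences of -0.11 (adjusted p = 1) and 0.87 (adjusted p = 0.131), and neither passed.

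PARP14, PARP12 and PARP9, interferon-induced members of the PARP family, which attaches ADP-ribose to proteins, and the partner DTX3L were higher on day 16. PARP12, PARP9 and DTX3L were chosen after their values were seen, so they do not stand for all PARP enzymes. PARP14 read 10.33, 10.15, 10.69, 10.48 and 10.49 on day 16, against 8.17, 7.63, 8.09, 9.73 and 8.40 on day 13, a difference of 2.03 (SE 0.38, adjusted p = 0.000585). All arrays of day 16 were above all arrays of day 13. PARP12 differed by 1.74 (adjusted p = 0.000318), PARP9 by 1.61 (adjusted p = 0.00459) and DTX3L, the ubiquitin ligase that pairs with PARP9, by 1.87 (adjusted p = 0.000562). In PARP9 replicate 4 of day 13, at 10.08, reached just above the lowest array of day 16, at 10.03.

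Replicate 4 of day 13 stood apart in the interferon genes as a whole. The mean of the 32 antiviral genes was 8.79, 8.74, 9.39, 9.36 and 9.66 on the arrays of day 16, against 6.61, 6.63, 6.77, 8.31 and 6.99 on those of day 13. Day 13 thus held 4 arrays between 6.61 and 6.99, and this 1 array lay nearer to day 16 than to them. Without it, 22 in place of 20 antiviral effectors passed the threshold, and their median difference was 2.36. In cyclic heifers the same mean lay between 6.08 and 6.56 on day 16 and between 6.24 and 7.71 on day 13, so some cyclic arrays of day 13 also lay above the 4 low pregnant ones.

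**Figure D3:**
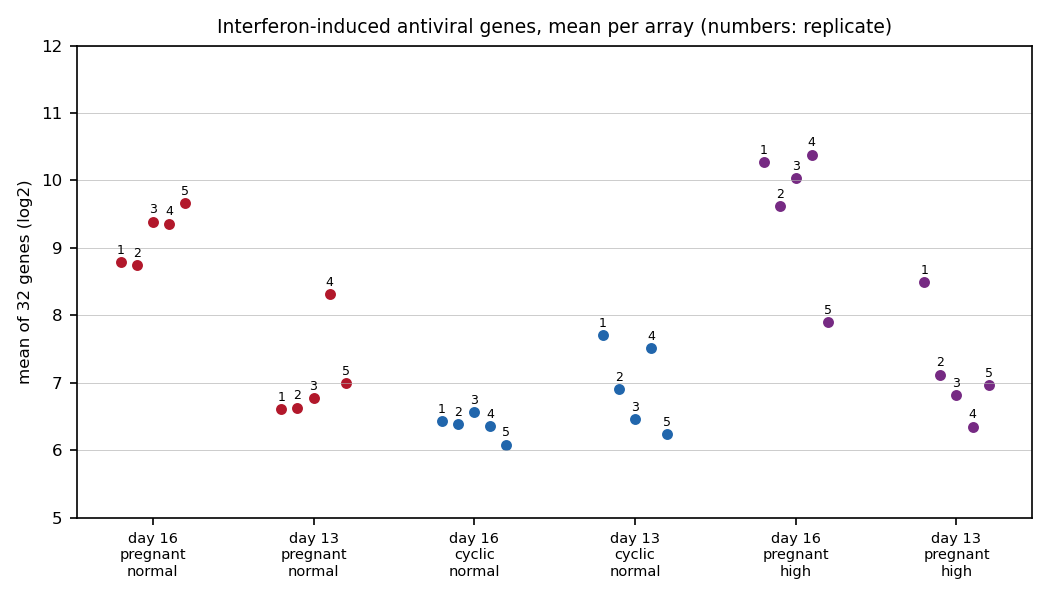
Mean log2 expression of 32 interferon-induced antiviral genes on each array (numbers give the replicate) of day 16 and day 13 in pregnant heifers with normal progesterone, cyclic heifers with normal progesterone and pregnant heifers with high progesterone. Pregnant arrays of day 16 with normal progesterone lie between 8.74 and 9.66, while cyclic arrays of day 16 lie between 6.08 and 6.56; replicate 4 of day 13 in pregnant heifers lies at 8.31 and replicate 5 of day 16 with high progesterone at 7.90.

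The direct test of whether the change from day 13 to day 16 differed between pregnant and cyclic heifers with normal progesterone called 14 named genes, 0.153% of those tested, all with the higher change in pregnant heifers. Of the 14, 12 belonged to the interferon lists. For MX2 the change was 5.78 in pregnant heifers and -1.22 in cyclic heifers, a difference of changes of 7.00 (SE 1.39, adjusted p = 0.0147). In cyclic heifers of day 16 all 5 arrays read between 2.05 and 2.06 for MX2, and on day 13 they read 5.80, 2.08, 2.05, 4.36 and 2.10. Most of these arrays and 4 of the pregnant arrays of day 13 lay at the bottom of the scale, so the size of this difference is not exact. EPSTI1, a gene induced by interferon in epithelium, had a difference of changes of 3.66 (adjusted p = 0.043) and EIF2AK2 one of 3.60 (adjusted p = 0.0122). XAF1, which opposes an inhibitor of caspases, differed by 3.29 (adjusted p = 0.0122), DHX58 by 3.11 (adjusted p = 0.0238) and IRF7 by 2.97 (adjusted p = 0.0298). ZNFX1, a helicase that senses viral RNA, differed by 2.65 (adjusted p = 0.0298) and the DNA sensor IFI16 by 2.57 (adjusted p = 0.0354).

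The other 6 called genes had smaller differences of changes, and all were positive. They were IFIT5 at 2.53, an RNA-binding relative of IFIT2, PARP14 at 2.52, PNPT1 at 2.32, an exonuclease of RNA, DTX3L at 2.25, PSMF1 at 1.25, an inhibitor of the proteasome, and GTF2B at 1.05, the general transcription factor TFIIB. ISG15 and RSAD2 had differences of changes of 6.04 (SE 1.54, adjusted p = 0.093) and 5.69 (SE 1.40, adjusted p = 0.0741), which missed the threshold. The count of probe sets behind these calls, 33 in all (0.137%), lay between 3 and 62 when 1 of the 20 arrays was left out. It was 3 without replicate 1 of day 13 in pregnant heifers and 62 without replicate 4 of that group, the array with high interferon genes.

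In the lists of chemokines and cytokines, complement and cell death regulators 2 genes each rose, beside 1.32% of all named genes. The medians of these lists were -0.01, -0.01 and 0.16, and the calls are given as single genes. CCL8, a chemokine that draws monocytes and lymphocytes, read 7.14, 5.77, 7.71, 6.92 and 6.89 on day 16, against 3.27, 3.25, 3.24, 5.77 and 4.48 on day 13. Replicate 4 of day 13 reached the lowest array of day 16, and the difference was 2.88 (SE 0.72, adjusted p = 0.016). IL15, a cytokine that sustains natural killer and memory T cells, averaged 4.38 ± 0.60 on day 16 and 3.05 ± 0.16 on day 13 (adjusted p = 0.00157). These were 2 of 48 chemokines, cytokines and receptors measured; CXCL10, a chemokine for T cells, differed by 2.42 but did not pass (adjusted p = 0.149).

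In the complement list 2 of 30 genes rose, C4A, a central component of the classical pathway, by 1.46 (SE 0.41, adjusted p = 0.0444) and C1R, the protease that starts it, by 1.07 (SE 0.30, adjusted p = 0.0452). C1R lay between 10.45 and 10.68 on day 16 and between 9.33 and 9.77 on day 13, without overlap, but both calls were lost in 9 of 10 omissions of 1 array, with adjusted p up to 0.144 and 0.113. CASP4, an inflammatory caspase, rose by 1.53 (SE 0.38, adjusted p = 0.016), and DEPP1, a gene induced by progesterone and by FOXO factors, by 1.03 (SE 0.26, adjusted p = 0.0182), as 2 of 27 cell death regulators. The call of CCL8 was lost without replicate 1, 2 or 3 of day 13, that of CASP4 without replicate 1 of day 13 or 5 of day 16, and that of DEPP1 without replicate 1 of day 13 or 4 or 5 of day 16.

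None of the 28 genes of antigen processing and presentation passed, although the list's median was 0.31. A positive sign was found in 22, against 4205 of all 9155 named genes. TAP1, the peptide transporter of this pathway, averaged 8.25 ± 0.31 on day 16 and 7.33 ± 0.46 on day 13, a difference of 0.92 (SE 0.34, adjusted p = 0.198). PSME2, a proteasome activator, differed by 0.64 (SE 0.18, adjusted p = 0.0515), and B2M, the light chain of class I molecules, by 0.20 (SE 0.14, adjusted p = 0.851). LGALS9, a galectin that acts on T cells, differed by 1.44 (SE 0.43, adjusted p = 0.0616).

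In the list of fatty acid and triglyceride metabolism 2 of 52 genes fell and 1 rose. Among all named genes 1.06% were lower and 1.32% higher. LPL, the lipase that frees fatty acids from circulating triglyceride, read 2.96, 3.38, 3.04, 3.69 and 4.17 on day 16, against 6.46, 7.48, 7.09, 6.43 and 6.83 on day 13. The days lay more than 2 units apart, and the difference was -3.41 (SE 0.72, adjusted p = 0.00275), a 10.6-fold lower signal on day 16. Day 16 lay near the bottom of the scale for LPL, so the size is not exact. DGAT2, which makes triglyceride, read 5.77, 5.32, 5.69, 5.58 and 4.67 on day 16, against 9.85, 8.84, 7.38, 8.92 and 6.81 on day 13, a difference of -2.96 (SE 0.62, adjusted p = 0.00283). Day 13 varied more widely, but none of its arrays reached day 16.

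FABP3, which carries fatty acids within cells, went the other way. FABP3 read 10.07, 8.65, 9.44, 10.34 and 9.12 on day 16, against 6.01, 5.79, 6.02, 5.36 and 6.35 on day 13. The days were far apart, with a difference of 3.62 (SE 0.70, adjusted p = 0.0008). The median difference of the list was -0.01. PLIN2, a coat protein of lipid droplets, gave -0.98 and did not pass (adjusted p = 0.111), and none of 23 genes of cholesterol synthesis and uptake passed. GPLD1, a phospholipase that cuts lipid-anchored proteins from the cell surface, read 8.91, 8.53, 8.05, 7.46 and 7.16 on day 16, against 2.79, 2.54, 6.04, 4.47 and 5.44 on day 13. All arrays of day 16 were higher, which the rule that chose this gene required, by 3.77 on average (SE 0.61, adjusted p = 4.57e-05). Arrays of day 13 at 2.79 and 2.54 lay near the bottom of the scale, so the size is not exact.

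PHGDH and PSAT1, the first enzymes of the serine pathway, had lower signals on day 16. PHGDH, which draws carbon from glycolysis into serine, read 9.49, 9.55, 10.04, 9.13 and 8.71 on day 16, against 11.74, 11.86, 11.71, 11.67 and 10.31 on day 13. Replicate 5 was the lowest array of day 13 and still above day 16. The difference was -2.08 (SE 0.46, adjusted p = 0.0047). PSAT1, the next enzyme of the pathway, read 9.83, 9.87, 9.53, 10.06 and 8.63 on day 16, against 11.61, 11.89, 11.68, 11.75 and 10.09 on day 13, with replicate 5 again the lowest of day 13. The difference was -1.82 (SE 0.36, adjusted p = 0.000977, and 0.0557 with only the compared groups fitted). MTHFD1L, a mitochondrial enzyme of folate one-carbon metabolism, fell by 1.84 on the log2 scale (adjusted p = 0.00642), and SMS, which makes spermine, by 1.39 (adjusted p = 0.00275), while a dimmer probe set of SMS gave -0.03. They were the 4 lower genes among 43 enzymes of this list, and the 1 higher gene was GPT2, a mitochondrial alanine aminotransferase, with 1.09 (SE 0.23, adjusted p = 0.00308). The median of the list was -0.01.

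PRODH and PEPD, enzymes of proline metabolism outside that list, also fell. PRODH, which starts the breakdown of proline, read 4.34, 3.09, 4.47, 3.35 and 3.27 on day 16, against 6.31, 6.91, 6.39, 7.16 and 5.47 on day 13, a difference of -2.74 (SE 0.48, adjusted p = 0.000214). PEPD, which releases proline from dipeptides, averaged 10.33 ± 0.20 on day 16 and 12.30 ± 0.26 on day 13, a difference of -1.97 (SE 0.32, adjusted p = 6.2e-05). In both genes the days did not overlap, which the rule that chose them required.

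Other genes with large negative differences belonged to no list. TXNRD1, which reduces thioredoxin, averaged 9.13 ± 0.15 on day 16 and 11.04 ± 0.37 on day 13 (difference -1.91, adjusted p = 3.11e-05). UCP2, a carrier of the inner mitochondrial membrane, averaged 4.42 ± 0.42 on day 16 and 6.60 ± 0.45 on day 13 (difference -2.19, adjusted p = 0.000868). MRPS36, a mitochondrial protein, averaged 10.13 ± 0.40 on day 16 and 12.08 ± 0.13 on day 13 (difference -1.95, adjusted p = 3.39e-06). The sulfur transferase TST averaged 9.81 ± 0.68 on day 16 and 11.94 ± 0.66 on day 13 (difference -2.13, adjusted p = 0.000158), and its days overlapped, since replicate 1 of day 16 lay above replicate 3 of day 13.

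SAA3, a serum amyloid A protein made by epithelia in inflammation, read 9.73, 6.85, 7.99, 8.35 and 5.64 on day 16, against 11.72, 12.11, 11.95, 12.05 and 9.22 on day 13. It fell further than any other named gene, by 3.70 on the log2 scale (SE 0.61, adjusted p = 6.2e-05), although replicate 5 of day 13 fell within the range of day 16 and the call was lost with only these groups fitted (adjusted p = 0.0635). SRPX, a sushi-repeat protein, gave -2.37 (SE 0.35, adjusted p = 1.17e-05), CPN1, the catalytic chain of carboxypeptidase N, -2.29 (SE 0.55, adjusted p = 0.0108), PRSS16, a serine protease best known from the thymus, -2.25 (SE 0.57, adjusted p = 0.0179), and ENPP3, an ectoenzyme that splits nucleotides, -2.19 (SE 0.56, adjusted p = 0.0193). The call of PRSS16 was lost without replicate 5 of day 13 or 4 or 5 of day 16 (adjusted p up to 0.0884), and that of ENPP3 without replicate 1 or 3 of day 13 or 5 of day 16 (up to 0.0938).

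Of 48 solute carriers and related genes 3 rose and 1 fell, beside 1.32% and 1.06% of all named genes. SLC2A1, the glucose carrier GLUT1, read 11.89, 11.18, 10.53, 12.02 and 10.78 on day 16, against 9.89, 9.69, 9.83, 10.29 and 9.50 on day 13. The days did not overlap, and the difference was 1.44 (SE 0.27, adjusted p = 0.000612), a 2.71-fold higher signal. With only the compared groups fitted the adjusted p was 0.0515. SLC5A1, the sodium-coupled glucose carrier, differed by 0.90 (SE 0.47, adjusted p = 0.563). CA2, a carbonic anhydrase, had a difference of 2.71 (SE 0.75, adjusted p = 0.0407), with replicate 3 of day 16 at 7.39 inside the range of day 13, and its call was lost in 7 of 10 omissions (adjusted p up to 0.174). SLC43A2, a carrier of neutral amino acids, rose by 0.67 (SE 0.18, adjusted p = 0.0246), a call lost without replicate 1, 3 or 4 of day 13 or 4 of day 16, and ATP1B1, a subunit of the sodium pump, fell by 0.73 (SE 0.20, adjusted p = 0.0357), a call lost in 6. PRSS8, the membrane protease prostasin that activates the epithelial sodium channel, averaged 9.37 ± 0.62 on day 16 and 7.82 ± 0.23 on day 13 (difference 1.56, adjusted p = 0.000214) and was the 1 call among 49 proteases and inhibitors.

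CRYGS, a crystallin first described in the eye lens, showed the next largest rise after MX2. CRYGS (gene ID 281724) read 8.18, 7.34, 6.72, 10.36 and 5.18 on day 16, against 2.41, 2.18, 2.41, 2.41 and 2.20 on day 13. All day 13 arrays lay at the bottom of the scale, so the size of the difference of 5.24 (SE 0.74, adjusted p = 6.35e-06) is not exact. Cyclic heifers showed it as well, with 8.68, 9.79, 7.26, 9.69 and 8.26 on day 16, against 2.44, 5.36, 2.18, 2.49 and 2.22 on day 13.

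**Figure D4:**
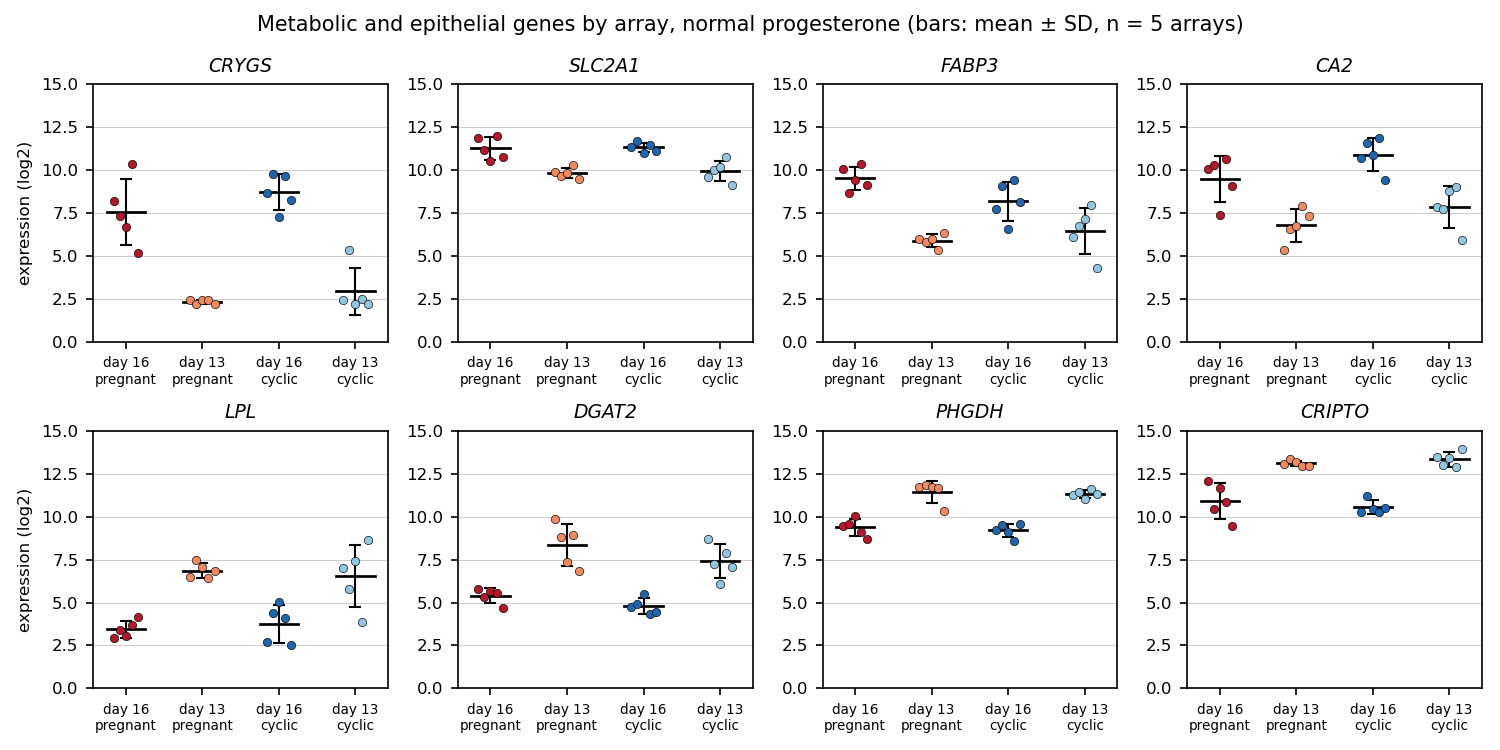
Expression (log2) of 8 metabolic, epithelial and signalling genes on each array of heifers with normal progesterone, with pregnant heifers of day 16 and day 13 to the left of cyclic heifers of day 16 and day 13; the long bar is the mean and the error bar the SD of 5 arrays. CRYGS, SLC2A1, FABP3 and CA2 have the higher mean on day 16 and LPL, DGAT2, PHGDH and CRIPTO the lower mean on day 16, in pregnant and in cyclic heifers.

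Of 35 genes of integrins and implantation adhesion 2 rose and 2 fell, beside 1.32% and 1.06% of all named genes. ITGB3, the integrin chain of the vitronectin receptor that binds osteopontin, averaged 10.57 ± 0.47 on day 16 and 9.29 ± 0.41 on day 13 (difference 1.27, adjusted p = 0.00608), with dimmer probe sets between 0.04 and 0.72. ITGB6, a chain that activates latent TGF-beta, rose by 1.22 (adjusted p = 0.0375). ITGB4, the chain that anchors epithelium to its basement membrane, fell by 1.32 (adjusted p = 0.0499) and ICAM3, a ligand of leukocyte integrins, by 1.64 (adjusted p = 0.0172). The calls of ITGB4 and ITGB6 were lost in 10 and 7 of the 10 omissions of 1 array, with adjusted p up to 0.141 and 0.198, and that of ICAM3 without replicate 1 of day 13 or 3 of day 16.

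Among 49 junction and keratin genes 3 fell and none rose past the threshold, beside 1.06% lower and 1.32% higher of all named genes. GJB5, a connexin of epithelial gap junctions, read 6.98, 6.25, 6.77, 5.71 and 5.51 on day 16, against 8.60, 8.60, 7.76, 8.57 and 8.24 on day 13 (difference -2.11, adjusted p = 0.0192). CLDN7, a tight junction claudin, and KRT10, a keratin of stratified epithelium, fell by 1.03 (adjusted p = 0.0444) and 1.02 (adjusted p = 0.0234). In all 3 genes the days did not overlap, but their calls were lost in 4, 8 and 5 omissions. THBS1, a matrix protein that restrains vessel growth, fell by 1.29 (SE 0.21, adjusted p = 4.57e-05) as the 1 call among 57 matrix genes. A second THBS1 probe set gave -1.16, and 4 dimmer ones gave values between 0.14 and 0.46 that did not pass.

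In the endocrine lists little passed. OXTR, the oxytocin receptor that starts the luteolytic pulses, read 2.85, 3.77, 2.42, 4.47 and 2.63 on day 16, against 2.91, 3.39, 2.54, 2.65 and 3.30 on day 13. Both days lay low and overlapped, with a difference of 0.27 (SE 0.82, adjusted p = 1). In cyclic heifers OXTR read 6.22, 3.77, 6.15, 6.85 and 6.21 on day 16, against 2.87, 2.38, 2.61, 2.88 and 3.83 on day 13. That change of 2.92 (SE 0.82) had an adjusted p of 0.0764, and the difference of changes, -2.65 (SE 1.16), did not pass (adjusted p = 1). PGR, the progesterone receptor, averaged 2.44 ± 0.30 on day 16 and 2.51 ± 0.32 on day 13, and ESR1, the oestrogen receptor alpha, 2.20 ± 0.09 on day 16 and 2.24 ± 0.02 on day 13, all at the bottom of the scale.

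AKR1B1, which can make prostaglandin F2α in cattle endometrium, was the 1 call among 29 genes of the oxytocin and prostaglandin system. AKR1B1 read 12.15, 12.40, 12.11, 12.20 and 10.87 on day 16, against 13.29, 13.35, 12.85, 13.26 and 12.59 on day 13. The days did not overlap, replicate 5 of day 16 was the lowest array, and the difference was -1.12 (SE 0.27, adjusted p = 0.0102). Without that array it was -0.85, with an adjusted p of 0.117. The call was also lost with only the compared groups fitted (adjusted p = 0.107). PTGS2, the cyclooxygenase upstream, differed by 0.65 (SE 0.59, adjusted p = 0.99) and by -0.56 on a dimmer probe set, and PTGER2, a receptor for prostaglandin E2, by 0.87 (SE 0.27, adjusted p = 0.0892).

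In the steroid, histotroph and activin lists 1 gene each was called, and all 3 were lower. IHH, the hedgehog ligand through which progesterone acts on the stroma in mice, read 5.50, 5.07, 5.23, 5.31 and 4.97 on day 16, against 7.00, 7.21, 6.17, 6.88 and 7.27 on day 13 (difference -1.69, SE 0.37, adjusted p = 0.00442). No array of day 16 reached day 13. MSX1, a homeobox factor that is lost at implantation in mice, read 11.59, 11.60, 11.90, 11.35 and 10.96 on day 16, against 12.67, 12.57, 12.39, 12.61 and 12.32 on day 13 (difference -1.03, SE 0.16, adjusted p = 1.81e-05). It was abundant on both days and lower in each heifer of day 16. CRIPTO, a co-receptor of Nodal, read 12.09, 10.45, 11.68, 10.88 and 9.44 on day 16, against 13.10, 13.35, 13.20, 12.98 and 12.97 on day 13. Day 13 was tight and day 16 wide, with a difference of -2.21 (SE 0.62, adjusted p = 0.0409) that was lost in 8 of 10 omissions (adjusted p up to 0.201).

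These were single calls in their lists. IHH stood in the list named for steroid receptors, cofactors and enzymes (21 genes), and MSX1 in that named for histotroph proteins and growth factors (48). Neither gene is itself of the class that names its list. CRIPTO stood in the list of the activin and Nodal system (32). In the Wnt list 1 of 31 genes rose, beside 1.32% of all named genes. It was the receptor FZD4, by 0.68 (SE 0.19, adjusted p = 0.0328, lost in 6 of 10 omissions), with overlapping days and -0.04 on a second probe set. DKK1, a secreted Wnt inhibitor, differed by 1.35 in pregnant heifers (SE 0.68, adjusted p = 0.54) and by -1.53 in cyclic heifers, a difference of changes of 2.88 (SE 0.96, adjusted p = 0.624). MSTN, myostatin, which is secreted into the histotroph, differed by -1.81 (SE 0.74, adjusted p = 0.311) and AXIN2, a Wnt target, by -1.12 (SE 0.33, adjusted p = 0.0605).

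ATF3, a stress-induced transcription factor, was the 1 call among 33 immediate early and stress genes. ATF3 read 5.42, 6.09, 4.75, 6.52 and 6.07 on day 16, against 2.87, 2.58, 3.74, 4.00 and 4.04 on day 13 (difference 2.32, SE 0.53, adjusted p = 0.00572). Its lowest arrays of day 13 lay near the bottom of the scale, so the size is not exact. The days did not overlap. Of 53 cell cycle genes, RRM1, a subunit of ribonucleotide reductase, rose by 0.93 (SE 0.17, adjusted p = 0.000276) and TK1, thymidine kinase, fell by 1.19 (SE 0.28, adjusted p = 0.00707). CCNB1, the cyclin of mitosis, differed by -1.43 (SE 0.42, adjusted p = 0.0605).

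Cyclic heifers with normal progesterone passed through part of the same change, which the plot of pregnant against cyclic changes shows. Between day 16 and day 13 their endometrium had 81 genes past the threshold (0.885%; 160 probe sets, 0.666%), 33 higher (0.36%) and 48 lower (0.524%). Of the 97 genes that fell in pregnant heifers, 38 (39.2%) also fell in cyclic heifers, and these were 79.2% of the cyclic list. Of the 121 that rose in pregnant heifers, 14 (11.6%) also rose in cyclic heifers, which was 42.4% of that list. The median cyclic change of the pregnant-lowered genes was -0.71 and 94 of the 97 had a negative sign, whereas the median cyclic change of the pregnant-raised genes was 0.18 and 74 of the 121 had a positive sign.

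**Figure D5:**
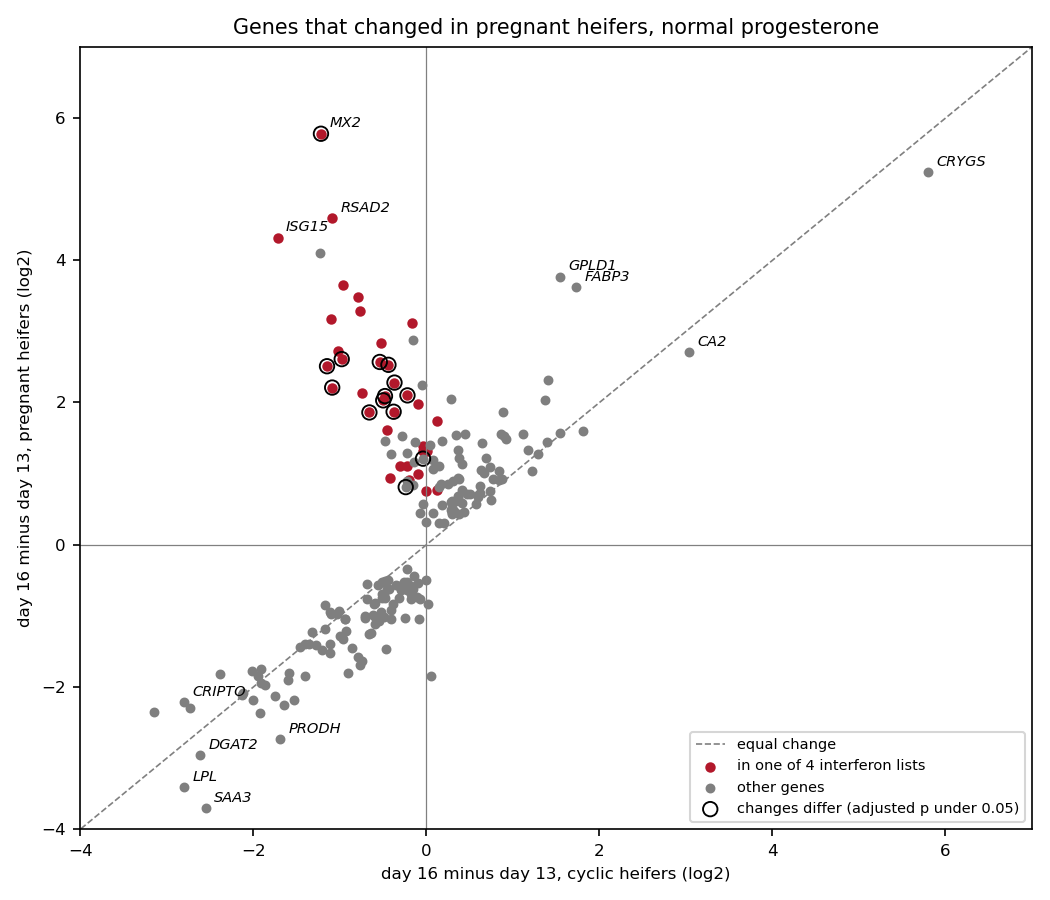
Change between day 16 and day 13 (log2) of each gene that passed the threshold in pregnant heifers, in pregnant heifers (vertical axis) and in cyclic heifers (horizontal axis), both with normal progesterone; genes of 4 interferon lists are red and rings mark the 14 genes whose changes differed. The interferon genes stand high on the vertical axis near or left of 0 on the horizontal one, with MX2 at 5.78 and -1.22, while CRYGS, CA2, LPL and DGAT2 lie near the line of equal change.

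For SLC2A1, PHGDH and CRIPTO the differences of changes were smaller than their errors. SLC2A1 changed by 1.44 in pregnant heifers and by 1.39 in cyclic heifers, a difference of changes of 0.05 (SE 0.38). PHGDH changed by -2.08 in pregnant heifers and by -2.12 in cyclic heifers, with a difference of 0.04 (SE 0.65). CRIPTO changed by -2.21 in pregnant heifers and by -2.80 in cyclic heifers, with a difference of 0.58 (SE 0.87). The widest errors here leave room for a difference of more than a doubling. FABP3 changed by 3.62 in pregnant heifers and by 1.73 in cyclic heifers (adjusted p = 0.387 for the cyclic change), and the difference of 1.89 (SE 0.99) did not pass the threshold (adjusted p = 1). GPLD1 changed by 3.77 in pregnant heifers and by 1.54 in cyclic heifers, a difference of 2.23 (SE 0.86, adjusted p = 0.985).

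Pregnant heifers with high progesterone had 468 genes past the threshold between day 16 and day 13 (5.11%; 874 probe sets, 3.64%), 366 higher (4.00%) and 102 lower (1.11%). With only these groups fitted none of the 874 probe sets passed, and without 1 array between 451 and 1444 did, so the shared counts below hold for the fit of all groups. Of the 121 genes raised with normal progesterone, 85 (70.2%) were also raised with high progesterone, 23.2% of that list, and 119 had a positive sign there, with a median of 1.24. Of the 97 lowered with normal progesterone, 26 (26.8%) were also lowered with high progesterone, 25.5% of that list, and 94 had a negative sign, with a median of -0.60. The test of the difference between the changes called 0 probe sets (0%) with limma, against 936 at an unadjusted p under 0.05. It called 79 when arrays were weighted by their quality. MX2 changed by 5.78 with normal and by 6.07 with high progesterone, a difference of -0.29 (SE 1.39).

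Replicate 4 of day 13 with high progesterone stood apart, with a mean of 12.04 over the smooth muscle markers against 6.29 to 7.45 on the other arrays of that group, and of 7.63 over the epithelial markers against 8.22 to 8.69. CLDN7, UCP2 and PLET1 are given here with and without this array, and none passed the threshold for a difference either way. CLDN7 changed by -1.03 with normal and by 0.43 with high progesterone (difference -1.46, SE 0.41, and -1.45 without the array). UCP2 changed by -2.19 with normal and by -0.42 with high progesterone (difference -1.76, SE 0.60, and -1.71 without the array). PLET1, a surface protein of placental and epithelial progenitors in mice, changed by 1.89 with normal progesterone (adjusted p = 0.314) and by 4.11 with high progesterone (adjusted p = 0.00035), a difference of -2.22 (SE 1.10, and -1.84 without the array). On day 16 with normal progesterone it was high on 1 array, 7.77 in replicate 4, and between 2.09 and 4.65 on the other 4.

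Of the cell type markers 1 passed the threshold. Epithelial markers averaged 8.45 ± 0.19 on day 16 and 8.41 ± 0.14 on day 13 over 13 genes, of which CLDN7 alone passed the threshold. Of the epithelial markers EPCAM averaged 13.42 on day 16 and 13.54 on day 13, while KRT8 lay at the bottom of the scale with 2.19 and 2.25. The 17 markers of conceptus trophoblast averaged 3.08 ± 0.07 on day 16 and 3.07 ± 0.06 on day 13, and none passed. IFNT2, an interferon tau gene, averaged 1.71 on day 16 and 1.72 on day 13, and PAG11, a pregnancy-associated glycoprotein, 1.96 and 1.98. Cyclic heifers, which carry no conceptus, gave 1.71 on both days for IFNT2, and 1.96 on day 16 and 1.97 on day 13 for PAG11.

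No marker of smooth muscle or of neutrophils passed the threshold. The 9 smooth muscle markers averaged 6.71 ± 0.31 on day 16, between 6.19 and 6.96, and 7.30 ± 0.73 on day 13, between 6.40 and 8.37, with a median difference of -0.78. Replicate 1 of day 13 was the highest. ACTA2, actin of smooth muscle, differed by -1.40 (SE 0.65, adjusted p = 0.449). Without that array 143 probe sets were higher and 120 lower, in place of 234 and 195, and 17 of 32 antiviral effectors rose. The 8 neutrophil markers averaged between 2.61 and 3.25 on day 16 and between 2.33 and 2.49 on day 13, with a median difference of -0.01, a positive sign in 3, and 6 of them under 3 on both days. S100A12, a calgranulin of neutrophils, differed by 2.47 without overlap (SE 0.88, adjusted p = 0.176). The part that such cells take in the results above was not tested.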

How the data were processed

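RNA of bovine endometrium was measured on 79 Affymetrix arrays. The authors deposited log2 expression values per probe set. The tools listed in the submitters' processing notes are RMA, GCRMA and limma, with no versions. Whether RMA or GCRMA gave the values is not given in the sources used here. Differences of probe sets with means under 3 may be compressed, which was not tested, and precision is limited by the number of arrays. Of 24128 probe sets, 112 controls were left out; 24016 were tested without a filter. GEO's platform annotation supplied the symbols (13292 probe sets with 1 symbol, 86 with several, 10638 without); 13263 gene IDs were found in the RefSeq gene table of ARS-UCD2.0, which changed 0 symbols. No positions or sequences are given. Where a gene had several probe sets (2913 of 9155 genes), the one with the highest mean over all arrays stood for it. Of 57 called genes with other probe sets, 80 of these 97 had the same sign, 36 passed the threshold and 0 were called in the opposite direction.

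Means of all 16 groups were fitted with limma 3.58.1 in R 4.3.3 (63 residual and 1.49 prior degrees of freedom), without a replicate block, and contrasts were adjusted by Benjamini-Hochberg. The test was tested on simulated data. Tables were made with pandas 2.3.3 and figures with matplotlib 3.10.9 in Python 3.11.15. No arrays held identical values. Replicate numbers come from the labels' titles; deviations of same-numbered arrays of day 16 and day 13 correlated between 0.0811 and 0.149, and the animals differed, so numbers were not treated as pairs. The labels call the replicates biological but do not describe the animals further. The p-values rest on the spread between samples within groups, pooled over all 16 groups.

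The comparison and the gene and marker lists were chosen with earlier results of these data known. The text names genes by these rules: the 15 highest and 15 lowest non-overlapping called genes, up to 4 called genes of each list, the 8 largest differences of changes in each direction, 22 fixed genes and cell markers, not all of which are named. AXIN2, CXCL10, DTX3L, EIF2S1, EIF3G, EIF3I, EIF4A1, EIF4E, GPT2, GTF2B, HERC6, IFIT5, IRF3, MSTN, OAS1X, PARP9, PARP12, PLET1, PLIN2, PNPT1, PSME2, PSMF1, PTGER2, SAA3, TRIM25, TST and UBE2L6 were chosen after their values were seen. Alternatives were a fit of the compared groups only, quantile normalization, median centring, a filter on dim probe sets, trended robust moderation, array weights, a replicate block, another probe set and leaving out arrays.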

Additional observations from a re-analysis of the deposited data

Results flagged for a closer look

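Within the groups of 5 pregnant heifers with normal progesterone, some named genes had 1 array far from the other 4; chance alone gives this in about 1 in 20 groups. On day 13 most of these arrays were replicate 4, the array with high interferon genes: MX2 read 7.29 there, IFI44 8.55, IFI44L 9.15, IFI16 9.54, IRF9 9.45, XAF1 10.50, ZNFX1 9.67, USP18 9.21, UBA7 8.47, UBE2L6 8.14, PARP12 11, IFIT2 3.62 and IL15 3.34. Each of these was above the other 4 arrays of the day. Replicate 5 of day 13 was far below its group in PHGDH (10.31), PSAT1 (10.09), SAA3 (9.22), CPN1 (7.92) and THBS1 (9.87), and replicate 2 was above it in SLC43A2 (3.98).

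On day 16 such arrays were scattered over the heifers: OAS1X read 4.22 in replicate 1, DHX58 8.17 in replicate 2 and AKR1B1 10.87 in replicate 5, each the lowest of its group, and TST read 11 in replicate 1, the highest.

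The change between day 16 and day 13 differed between pregnant and cyclic heifers with normal progesterone, by the test of the difference itself, for 14 named genes, each with the higher change in pregnant heifers. The differences of changes on the log2 scale were 7.00 for MX2, 3.66 for EPSTI1, 3.60 for EIF2AK2, 3.29 for XAF1, 3.11 for DHX58, 2.97 for IRF7, 2.65 for ZNFX1, 2.57 for IFI16, 2.53 for IFIT5, 2.52 for PARP14, 2.32 for PNPT1, 2.25 for DTX3L, 1.25 for PSMF1 and 1.05 for GTF2B.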

How the results depend on the processing

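Counts below are of probe sets. The change in pregnant heifers with normal progesterone (429 called, 234 higher and 195 lower) stayed between 390 and 469 with the compared groups fitted alone, quantile normalization, median centring, bright probe sets only, trended robust moderation and a replicate block. It was 413 without 2 day 13 arrays of high interferon genes, of which only replicate 4 was in this group, an alternative chosen after seeing the data. Array weights gave 1183 (639 higher, 544 lower). Leaving out 2 day 13 arrays of high smooth muscle markers, of which only replicate 1 was in this group, gave 278 (153 and 125). This was also chosen after seeing the data. Leaving out 1 array gave 263 to 453 in all, 143 to 259 higher and 120 to 194 lower; the lowest counts came without replicate 1 of day 13 (263), and without replicate 4 of day 16 there were 283 and without replicate 5 of day 16 there were 129 lower. Fewer arrays in a group also lower the number of calls.

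The difference from the cyclic change (33) was 76 in the fit of the compared groups, 133 with array weights, 64 without the arrays of high interferon genes, 4 without those of high smooth muscle markers and 3 to 62 without 1 array. It was between 3 and 8 without replicate 1, 2 or 3 of day 13 or 3 or 5 of day 16 in pregnant heifers, or 1 or 4 of day 13 in cyclic heifers. The difference from the high progesterone change (0) was 79 with array weights, 1 without the arrays of high smooth muscle markers and 0 to 6 without 1 array, with 6 without replicate 5 of day 16 with high progesterone. The cyclic change (160) was 753 with array weights and 94 to 195 without 1 array. The high progesterone change (874) was 0 with its groups fitted alone, 1704 with array weights, 523 without the arrays of high smooth muscle markers and 451 to 1444 without 1 array. The causes were not tested.

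The replicate numbers did not pair the samples, and a replicate block gave 432 calls (236 higher, 196 lower), 30 for the difference from cyclic heifers and 0 for that from high progesterone; 3 of 82 called genes of the text (CLDN7, EIF3G and ITGB4) lost their call under the block. Of those 82 genes, 16 lost it in the fit of the compared groups, 0 with array weights and 8 to 22 without 1 array, and 55 kept it in every omission of 1 array of these groups. The 16 were AKR1B1, ATP1B1, C4A, CA2, CLDN7, EIF2S1, EIF3I, EIF4A1, FZD4, ITGB6, PSAT1, SAA3, SAMD9, SLC2A1, SLC43A2 and STAT2. Their adjusted p in that fit ran from 0.0512 (EIF2S1) to 0.326 (SLC43A2). On the second probe set FZD4 changed sign (-0.04); lower-ranked probe sets, which were not run as alternatives, had the opposite sign for THBS1 (0.14 to 0.46) and IRF7 (-0.01). Under the other settings none of the 82 changed sign. Uncalled genes with small differences changed sign: PGR was 0.05 with array weights and ranged from -0.18 to 0.03 without 1 array, IFNAR1 was -0.09 with the arrays of high smooth muscle markers left out and ranged from -0.09 to 0.15 without 1 array, OXTR ranged from -0.04 to 0.47 without 1 array, and PTGS2 was -0.56 on its second probe set. Of all probe sets 32.2% had a mean under 3, where the size of a difference is not exact.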

Other observations

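In pregnant heifers with normal progesterone, the 5 translation factors below were chosen after their values were seen, belonged to no list, and stand for no group of genes. EIF4E, which binds the cap of messenger RNA, read 10.25, 10.30, 10.76, 10.87 and 10.42 on day 16, against 9.60, 9.50, 9.66, 10.02 and 9.62 on day 13, a difference of 0.84 (SE 0.17, adjusted p = 0.00146) without overlap. In cyclic heifers EIF4E changed by -0.16, and the difference of changes of 1.00 (SE 0.24) had an adjusted p of 0.0605. EIF4A1, the helicase that unwinds the message for the ribosome, averaged 11.19 ± 0.51 on day 16 and 10.25 ± 0.13 on day 13 (SD, n = 5 each; difference 0.94, SE 0.22, adjusted p = 0.00892). EIF2S1, the subunit that EIF2AK2 phosphorylates, differed by 0.56 (SE 0.12, adjusted p = 0.00479).

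Subunits of the initiation factor eIF3 gave small values of the same sign, 0.57 for EIF3I (adjusted p = 0.0201) and 0.44 for EIF3G (adjusted p = 0.0409). Cyclic heifers had changes of 0.57 and 0.29 in these genes. The call of EIF3G was lost in 9 of 10 omissions of 1 array, that of EIF3I without replicate 3 or 4 of day 13 or 4 or 5 of day 16, and that of EIF4A1 without replicate 4 of day 16. With only the compared groups fitted EIF2S1, EIF3I and EIF4A1 had adjusted p of 0.0512, 0.056 and 0.0783.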
